A study of Homo sapiens with 24 samples.

Results

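DNA replication and nucleotide synthesis genes were examined as 46 genes chosen by symbol, in 24 libraries of 3 triple-negative breast cancer (TNBC) cell lines. The genes fall into 4 roles: 15 of origin recognition and licensing, 7 of helicase activation, 20 of the replication fork and 4 of nucleotide synthesis. MCM8 was counted with helicase activation by choice, and no such role of it was tested. All 46 were listed in each of the 4 deposited tables, among 19283 genes for Hs578T, 18248 for HCC70, 60651 for the KIF20A depletion and 23792 for the KIF20A overexpression, and all 46 passed the minimum mean of 1 in each. BCSCs (breast cancer stem-like cells) and non-BCSCs were sorted from wild-type Hs578T and HCC70 cells on CD24, CD44 and ALDH activity. MDA-MB-231 cells carried a control sgRNA (sgCtrl) or KIF20A sgRNA #1 (KIF20A sg1, labelled a KIF20A knockdown), and in a separate experiment an empty control vector (EV) or KIF20A overexpression (KIF20A OE). KIF20A is a mitotic kinesin needed for cytokinesis. Each of these 8 groups held 3 replicates, and the submitters gave each experiment a batch of its own, so cell line and batch cannot be told apart between experiments. The sgRNA cells were infected with lentivirus. The promoter of the overexpression vector, and whether the sgRNA or overexpression cells were clones, are not given in the sources used here.

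Replication begins with licensing: the origin recognition complex (ORC1 to ORC6), CDC6 and CDT1 load the MCM2 to MCM7 helicase on DNA in G1 phase, and geminin (GMNN) blocks CDT1 once replication has begun. CDC45 and the GINS complex join the helicase to start it, and the fork is then copied by DNA polymerases alpha, delta and epsilon with the clamp PCNA, its loader RFC and the single-strand binding protein RPA. Thymidylate synthase (TYMS), thymidine kinase (TK1) and ribonucleotide reductase (RRM1 and RRM2) supply the nucleotides. Many of these genes are known targets of E2F factors at the G1/S boundary, whereas genes of G2 and mitosis are known to be driven through CHR and CCAAT elements bound by the DREAM, MMB and NF-Y complexes.

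Promoters were searched for the letters of these elements, and a few are shown because replication and G2/M genes are set beside each other in each comparison. RefSeq promoters (GRCh38.p14, 250 bases before to 50 after the start site) were found for 40 of the 46 genes; MCM4, MCM5, GINS4, POLD3, RPA2 and RPA3 had no entry in the table. The E2F letters searched on both strands were TTTCCCGC or TTTGGCGC or TTTCGCGC or TTTGCCGC, where matches on opposite strands may overlap each other. They occurred in 19 of the 40 promoters (47.5%), against 3.31% of all 35116 promoters in the table and 4.10% of the 22198 protein-coding ones. The 160 bases just before the start site are given 5′ to 3′ on the strand of the gene for the licensing genes MCM6 (chr2:135876444-135876603, minus strand) and CDT1 (chr16:88803629-88803788, plus strand), the helicase gene GINS2 (chr16:85688955-85689114, minus strand) and the fork genes POLA2 (chr11:65261802-65261961, plus strand) and RFC3 (chr13:33817989-33818148, plus strand), with E2F letters in capitals.
MCM6: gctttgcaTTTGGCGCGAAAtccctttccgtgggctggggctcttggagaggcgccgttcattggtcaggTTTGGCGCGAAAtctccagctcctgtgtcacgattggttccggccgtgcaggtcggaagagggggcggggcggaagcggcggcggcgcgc
CDT1: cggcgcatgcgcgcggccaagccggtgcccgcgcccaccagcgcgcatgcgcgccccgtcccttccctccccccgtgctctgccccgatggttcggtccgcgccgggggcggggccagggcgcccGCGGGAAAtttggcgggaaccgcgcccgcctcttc
GINS2: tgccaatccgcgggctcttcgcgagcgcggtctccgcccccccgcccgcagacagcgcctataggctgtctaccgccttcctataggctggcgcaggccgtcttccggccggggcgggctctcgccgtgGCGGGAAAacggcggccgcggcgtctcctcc
POLA2: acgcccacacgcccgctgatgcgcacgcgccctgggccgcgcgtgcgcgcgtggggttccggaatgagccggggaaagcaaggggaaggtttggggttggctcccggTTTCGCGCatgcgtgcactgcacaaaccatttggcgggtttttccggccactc
RFC3: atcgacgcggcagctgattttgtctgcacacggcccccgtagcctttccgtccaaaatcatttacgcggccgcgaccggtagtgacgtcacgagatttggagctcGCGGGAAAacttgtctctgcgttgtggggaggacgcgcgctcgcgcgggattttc
MCM6 held 4 matches in 2 runs in which the strands overlap, and the other shown promoters held 1 each. CDT1, POLA2 and GINS2 were also the members with the largest rises in KIF20A OE. CDC45, which rose there too, held no E2F letters and is not shown. In KIF20A OE 15 of the 19 members with E2F letters rose, and 16 of the 21 without them.

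The 20 G2/M phase genes, a list of mitotic cyclins, kinases and kinesins held these letters in other shares. The CHR letters TTTGAA or TTCGAA, on either strand, occurred in 10 of the 16 G2/M promoters in the table (62.5%), in 2 of the 40 replication promoters (5.00%) and in 16.4% of all promoters. E2F letters occurred in 1 of the 16 G2/M promoters. The letters CCAAT, on either strand, were in 87.5% of G2/M, 57.5% of replication and 34.6% of all promoters. RRM2 (chr2:10122579-10122738, plus strand), which held no E2F letters in its 300 bases, is shown with CCAAT in capitals, and the mitotic genes CCNB2 (chr15:59104986-59105145, plus strand) and PLK1 (chr16:23678729-23678888, plus strand) with CHR and CCAAT letters in capitals.
RRM2: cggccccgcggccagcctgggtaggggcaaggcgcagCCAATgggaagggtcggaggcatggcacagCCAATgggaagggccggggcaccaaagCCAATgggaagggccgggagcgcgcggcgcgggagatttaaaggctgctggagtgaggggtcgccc
CCNB2: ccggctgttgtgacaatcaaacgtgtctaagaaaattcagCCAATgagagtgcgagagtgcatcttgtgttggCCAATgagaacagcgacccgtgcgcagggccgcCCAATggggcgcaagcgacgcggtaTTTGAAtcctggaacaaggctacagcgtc
PLK1: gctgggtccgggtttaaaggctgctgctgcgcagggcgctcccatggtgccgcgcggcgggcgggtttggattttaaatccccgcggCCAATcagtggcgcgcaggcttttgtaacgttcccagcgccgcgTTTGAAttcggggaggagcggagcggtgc
By role, E2F letters were in 7 of 13 licensing, 4 of 6 helicase activation, 7 of 17 fork and 1 of 4 nucleotide synthesis promoters. These are matches of letters in one window and say nothing of whether a factor was bound.

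**Figure D1:**
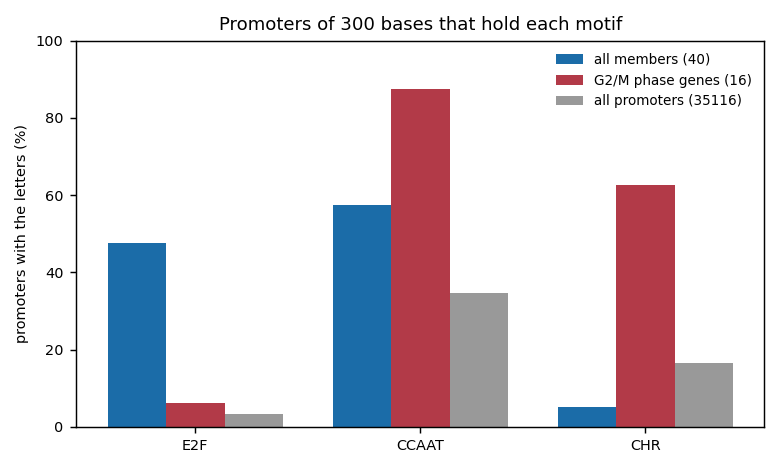
Share of 300-base RefSeq promoters that hold the E2F, CCAAT or CHR letters on either strand (y axis, percent), for the replication and nucleotide genes ("all members", 40 promoters), the G2/M phase genes (16) and all promoters in the table (35116). E2F letters were in 47.5% of replication and 6.25% of G2/M promoters, and CHR letters in 5.00% and 62.5%.

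Recovered reads per library numbered 28403151 to 33973761 for Hs578T and 24984030 to 33986022 for HCC70. The depletion libraries held 41424338 to 51018667 and the overexpression libraries 15971297 to 22182293. The 46 genes rested on at least 413, 225, 255 and 57 reads in every library of these experiments in turn. Both marker lists matched the labels of the sorted lines. The 6 mesenchymal breast markers (VIM, CD44, AXL, CAV1, CAV2 and NT5E) summed to 5513 to 5930 TPM in Hs578T, and the 6 epithelial ones (EPCAM, CDH1, KRT5, KRT18, KRT19 and ESRP1) to 8243 to 9455 TPM in HCC70; the opposite lists summed to 536 to 602 TPM of mesenchymal markers in HCC70 and 305 to 411 TPM of epithelial ones in Hs578T. AXL was not listed for HCC70, nor KRT5 for Hs578T and the overexpression experiment, and KRT5 was at 0 in every depletion library. The libraries labelled KIF20A OE went against the MDA-MB-231 label: mesenchymal markers summed to 5959 to 6672 CPM in EV and 388 to 824 CPM in KIF20A OE, and the hyaluronan receptor CD44 was at 788, 615 and 523 CPM in EV and 0.125, 0.316 and 1.23 CPM in KIF20A OE. All 6 of these markers were lower there, as were 3 of 4 epithelial markers tested.

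TPM values are divided by transcript length, so that levels of different genes can be compared within Hs578T and HCC70. The lengths used are not given in the sources used here, and rankings of genes rest on them. Replication genes spanned a wide range in both lines. In Hs578T non-BCSCs the lowest was ORC4 at 10.4 TPM and the highest was PCNA at 417 TPM, with a median of 61.4 TPM. In HCC70 non-BCSCs the range ran from GINS4 at 5.95 TPM to PCNA at 453 TPM, with a median of 66.1 TPM. PCNA, the sliding clamp, was thus the most abundant member in both lines.

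Subunits of one complex were unequal. Of the helicase subunits, MCM6 was lowest and MCM3 highest in non-BCSCs of both lines, at 56.2 and 228 TPM in Hs578T, a 4.05-fold range, and at 103 and 200 TPM in HCC70, a 1.93-fold range. Among origin recognition subunits ORC4 was lowest in both, and the highest was ORC3 in Hs578T (50.9 TPM) and ORC6 in HCC70 (46.8 TPM). This place of ORC4, which has 8916 exon bases, depends on the length term. Without a length term ORC4 was the highest of these subunits in sgCtrl (56.6) and EV (38.1 CPM) of MDA-MB-231. The 3 subunits of RPA lay closest together of the 7 complexes and groups compared in Hs578T non-BCSCs, from 58.02 TPM for RPA1 to 82.3 TPM for RPA2. RRM2, the regulated subunit of ribonucleotide reductase, exceeded RRM1 in every sorted library, by 1.41 to 1.57 times in Hs578T and 1.48 to 1.81 times in HCC70.

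The tables of the lines were made separately, so levels are set side by side and were not tested between them. Of the 46 genes, 24 had non-BCSC means within 1.5 times of each other in the lines and 5 were more than 2 times apart. GINS4, a GINS subunit, was at 53.9 TPM in Hs578T and 5.95 TPM in HCC70, 9.06 times apart, although 23.4% of its exon bases overlap lncRNA genes on the opposite strand. GMNN, the inhibitor of CDT1, was at 70.2 TPM in Hs578T and 317 TPM in HCC70. CDT1 was at 22.3 TPM in Hs578T and 48.6 TPM in HCC70. The other two were lower in HCC70: MCM8 (61.4 and 28.9 TPM, with 33.3% of its exon bases shared with a gene on the same strand) and RRM1 (201 and 97.3 TPM).

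**Figure D2:**
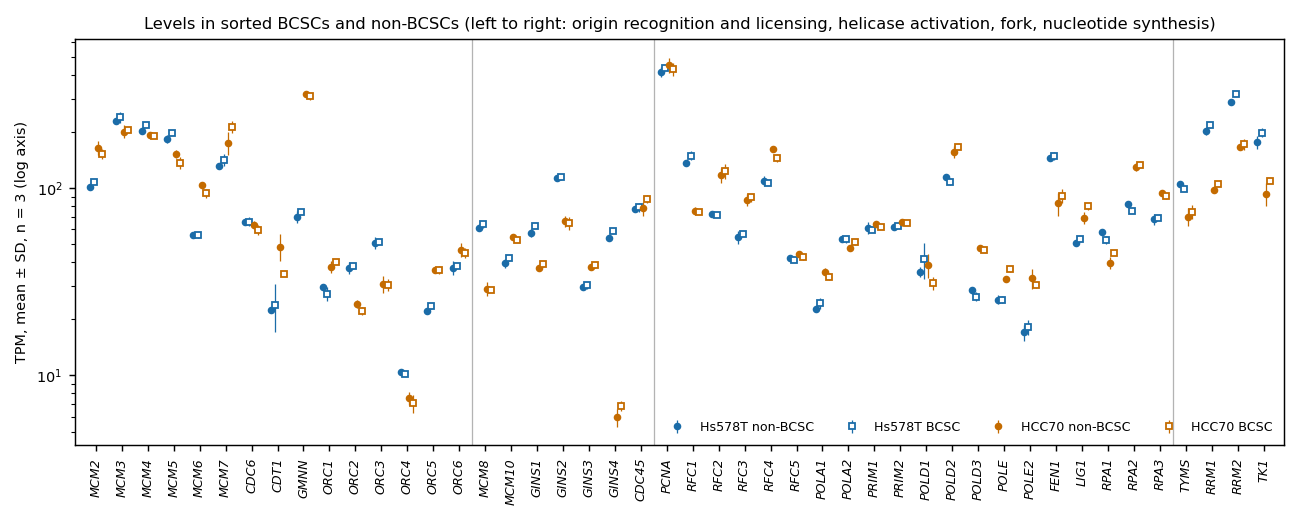
Mean level of each of the 46 genes in sorted non-BCSCs (filled circles) and BCSCs (open squares) of Hs578T (blue) and HCC70 (orange), in TPM on a log axis, with the SD of 3 replicates as bars; vertical lines part the 4 roles. GINS4 was at 53.9 TPM in Hs578T and 5.95 TPM in HCC70 non-BCSCs and GMNN at 70.2 and 317 TPM, while BCSC and non-BCSC values of a line lay close together.

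In Hs578T, BCSCs were compared with non-BCSCs to ask which replication genes differ with the stem-like state. None of the 46 genes passed an adjusted p of 0.05 in limma, where 7.15% of the 13324 genes tested did, 2.90% higher and 4.26% lower in BCSCs. At an unadjusted p under 0.05 there were 7, where 22.5% of all genes passed; RPA1 and RPA2 were the ones with lower values in BCSCs. Rescaling by the median of ratios, edgeR and DESeq2 gave 3, 5 and 6 adjusted calls, each of these higher in BCSCs and MCM4, GINS4 and RRM2 among them each time. Over all genes these gave 1208, 1644 and 1422 calls, 596, 810 and 737 of them higher, beside 953 and 386 in limma. Log2 fold changes lay between -0.13 and 0.21, with 32 genes above 0, where 45.4% of all genes were and 54.6% lay below, and a median of 0.04, beside -0.01 over all genes tested. Bulk RNA cannot tell fewer cells in S phase from less of an RNA in each cell.

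Genes of nucleotide synthesis had a median log2 fold change of 0.13, licensing genes 0.06, helicase activation genes 0.06 and fork genes 0.01. RRM2 had the smallest adjusted p. It was at 296, 290 and 280 TPM in non-BCSCs and 314, 327 and 315 TPM in BCSCs. The groups did not overlap, and the log2 fold change was 0.14 (SE 0.04, adjusted p = 0.0908 from limma). TK1, which salvages thymidine, was at 162, 177 and 189 TPM in non-BCSCs and 204, 186 and 203 TPM in BCSCs, a log2 fold change of 0.17 (SE 0.07) with overlapping groups. TYMS, which makes thymidylate de novo, had lower values in BCSCs: 104, 106 and 105 TPM in non-BCSCs and 96.6, 101 and 100.5 TPM in BCSCs, a log2 fold change of -0.08 (SE 0.04, adjusted p = 0.279). Of its exon bases, 47.9% overlap ENOSF1 and TYMSOS on the opposite strand, and the strand setting of the counting is not given.

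RPA1 and RPA2, subunits of the protein that coats single-stranded DNA, stood on the low side. RPA1 was at 57.3, 57.8 and 59.0 TPM in non-BCSCs and 51.7, 51.2 and 55.8 TPM in BCSCs (log2 fold change -0.13, SE 0.05, adjusted p = 0.156 from limma), and RPA2 at 83.3, 81.9 and 81.7 TPM against 76.9, 73.7 and 75.6 TPM (-0.13, SE 0.04, adjusted p = 0.111). Neither passed the test. RPA3, the third subunit, overlapped between the fractions. In all, 8 genes had BCSC values entirely above the non-BCSC values (MCM2, MCM4, MCM5, ORC5, GINS1, GINS4, LIG1 and RRM2), where 12.0% of all genes did. RPA1, RPA2 and TYMS lay entirely below, where 17.0% of all genes did. These names were listed after their values were seen.

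MCM2, a helicase subunit, was at 98.1, 101 and 105 TPM in non-BCSCs and 105, 109.7 and 106 TPM in BCSCs (log2 fold change 0.08, SE 0.04). CDC6, the loader, was at 67.9, 66.2 and 64.4 TPM against 67.4, 61.9 and 68.6 TPM, and GMNN at 75.0, 70.6 and 64.9 TPM against 74.4, 75.3 and 73.4 TPM. Their groups overlapped, as did those of PCNA (433, 427 and 390 TPM against 443, 425 and 436 TPM). CDC45 was at 77.1, 78.0 and 77.2 TPM in non-BCSCs and 80.4, 73.9 and 82.4 TPM in BCSCs, and RRM1 at 209.9, 200.4 and 191 TPM against 217, 209 and 222 TPM. CDT1 spread widely among BCSC libraries, at 22.3, 31.3 and 17.9 TPM, beside 21.5, 22.7 and 22.5 TPM in non-BCSCs. POLD1, the catalytic subunit of polymerase delta, was likewise highest in BCSC replicate 2 (52.2 TPM, with 38.8 and 34.4 TPM in the others), a library that held the lowest BCSC value for 31 of the 46 genes.

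In HCC70, too, none of the 46 genes passed the adjusted threshold, where 2.83% of the 13218 genes tested did, 2.28% higher and 0.552% lower in BCSCs; 9 had an unadjusted p under 0.05, where 23.7% of all genes did. Log2 fold changes ranged from -0.47 to 0.28, with 20 genes above 0, where 56% of all genes were and 44% lay below, and a median of -0.01, beside 0.02 over all genes tested. Medians by role were -0.05 for licensing, 0.04 for helicase activation, -0.01 for fork and 0.10 for nucleotide synthesis genes. In BCSCs, 7 genes lay entirely above (MCM7, ORC1, POLA2, POLE, LIG1, RPA1 and RRM1), where 20.9% of all genes did, and 5 entirely below (MCM6, CDT1, RFC4, PRIM1 and POLD1), where 10.1% did. These names, too, were listed after their values were seen.

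CDT1 was nearest to the threshold. This licensing factor was at 57.1, 46.9 and 41.7 TPM in non-BCSCs and 34.6, 34.8 and 34.2 TPM in BCSCs. Every BCSC library lay below every non-BCSC library, and the means were 48.6 ± 7.85 and 34.5 ± 0.31 TPM (SD, n = 3; log2 fold change -0.47, SE 0.10, adjusted p = 0.0582 from limma). Adjusted p over its alternatives ran from 4.716e-05 in DESeq2 to 0.1903 without BCSC replicate 1; edgeR gave 0.01965. The ratio of CDT1 to its inhibitor GMNN was 0.176, 0.151 and 0.132 in non-BCSCs and 0.110, 0.119 and 0.108 in BCSCs, whereas GMNN itself was at 323.8, 310.3 and 316 TPM against 315, 292 and 317 TPM, with overlapping groups. In Hs578T the ratio overlapped between the fractions, at 0.287, 0.322 and 0.348 against 0.299, 0.415 and 0.243.

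Some fork genes had higher values in HCC70 BCSCs without passing the test. POLE, the catalytic subunit of polymerase epsilon, was at 31.6, 32.3 and 34.2 TPM in non-BCSCs and 38.2, 35.6 and 37.5 TPM in BCSCs (log2 fold change 0.18, SE 0.06, adjusted p = 0.124 from limma). LIG1, the ligase that joins Okazaki fragments, was at 64.8, 68.8 and 74.9 TPM against 80.7, 82.5 and 75.8 TPM (0.20, SE 0.07, adjusted p = 0.136). POLD1 went the other way, at 44.9, 36.9 and 34.1 TPM against 30.3, 33.7 and 29.0 TPM (-0.30, SE 0.10, adjusted p = 0.139), and DESeq2 alone called it.

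Among the other members, MCM2 was at 149, 176 and 166 TPM in HCC70 non-BCSCs and 146, 164 and 148 TPM in BCSCs, and CDC6 at 64.8, 59.9 and 66.0 TPM against 59.4, 56.5 and 63.9 TPM. CDC45, which travels with the helicase, was at 70.3, 79.7 and 83.4 TPM against 90.8, 89.6 and 82.1 TPM, and PCNA at 424, 436 and 501 TPM against 452, 452 and 392 TPM. Both overlapped between the fractions. RRM1 was at 94.0, 97.3 and 101 TPM against 106, 106 and 103 TPM (log2 fold change 0.11, SE 0.05), whereas RRM2 overlapped at 170.4, 159 and 167 TPM against 174, 157 and 182 TPM. TYMS (63.7, 68.2 and 79.1 TPM against 78.6, 67.2 and 77.5 TPM) and TK1 (82.0, 108 and 89.8 TPM against 108, 114 and 106 TPM) overlapped as well.

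The G2/M phase genes were higher in the same BCSC libraries. This list was chosen with earlier results of these data known. It holds KIF20A, CCNB1, HMMR and NEK2, which the paper had picked as higher in BCSCs of both lines. Its counts and medians in BCSCs are therefore no independent test. In Hs578T 19 of 20 were called higher (2.90% of all genes were), with a median log2 fold change of 0.35 against 0.04 for the replication genes. In HCC70 18 of 20 were called higher (2.28% of all genes), with a median of 0.60 against -0.01. For example, PLK1, a mitotic kinase, was at 84.7, 84.1 and 87.1 TPM in Hs578T non-BCSCs and 111, 114 and 117 TPM in BCSCs (log2 fold change 0.41, SE 0.04, adjusted p = 0.00195 from limma). Sums over the 20 genes ran from 2818 to 2967 TPM in non-BCSCs and 3601 to 3838 TPM in BCSCs of Hs578T, and from 1931 to 2008 TPM and 2933 to 3088 TPM in HCC70. The part of cell cycle position in the replication gene values was not tested. Of 8 E2F and G1/S regulators (E2F1, CCNE1, CDC25A and others) none was called in either line, with medians of -0.02 and -0.06.

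Further genes of the pathway were counted from lists of 26 replication genes and 12 nucleotide genes. A single call in each line stood near the share of all genes called higher, 2.90% in Hs578T and 2.28% in HCC70. In Hs578T 1 replication gene was called, RNASEH2A, a subunit of the nuclease that removes ribonucleotides from DNA, which rose from 146, 146 and 148 TPM to 162, 165 and 167 TPM (log2 fold change 0.17, SE 0.04, adjusted p = 0.0397 from limma). In HCC70 1 was called, the histone chaperone ASF1B, which rose from 128, 143 and 134 TPM to 162, 171 and 165 TPM (0.30, SE 0.06, adjusted p = 0.0426), and under the median of ratios no gene of the list was called in HCC70. None of the further nucleotide genes was called in either line.

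**Figure D3:**
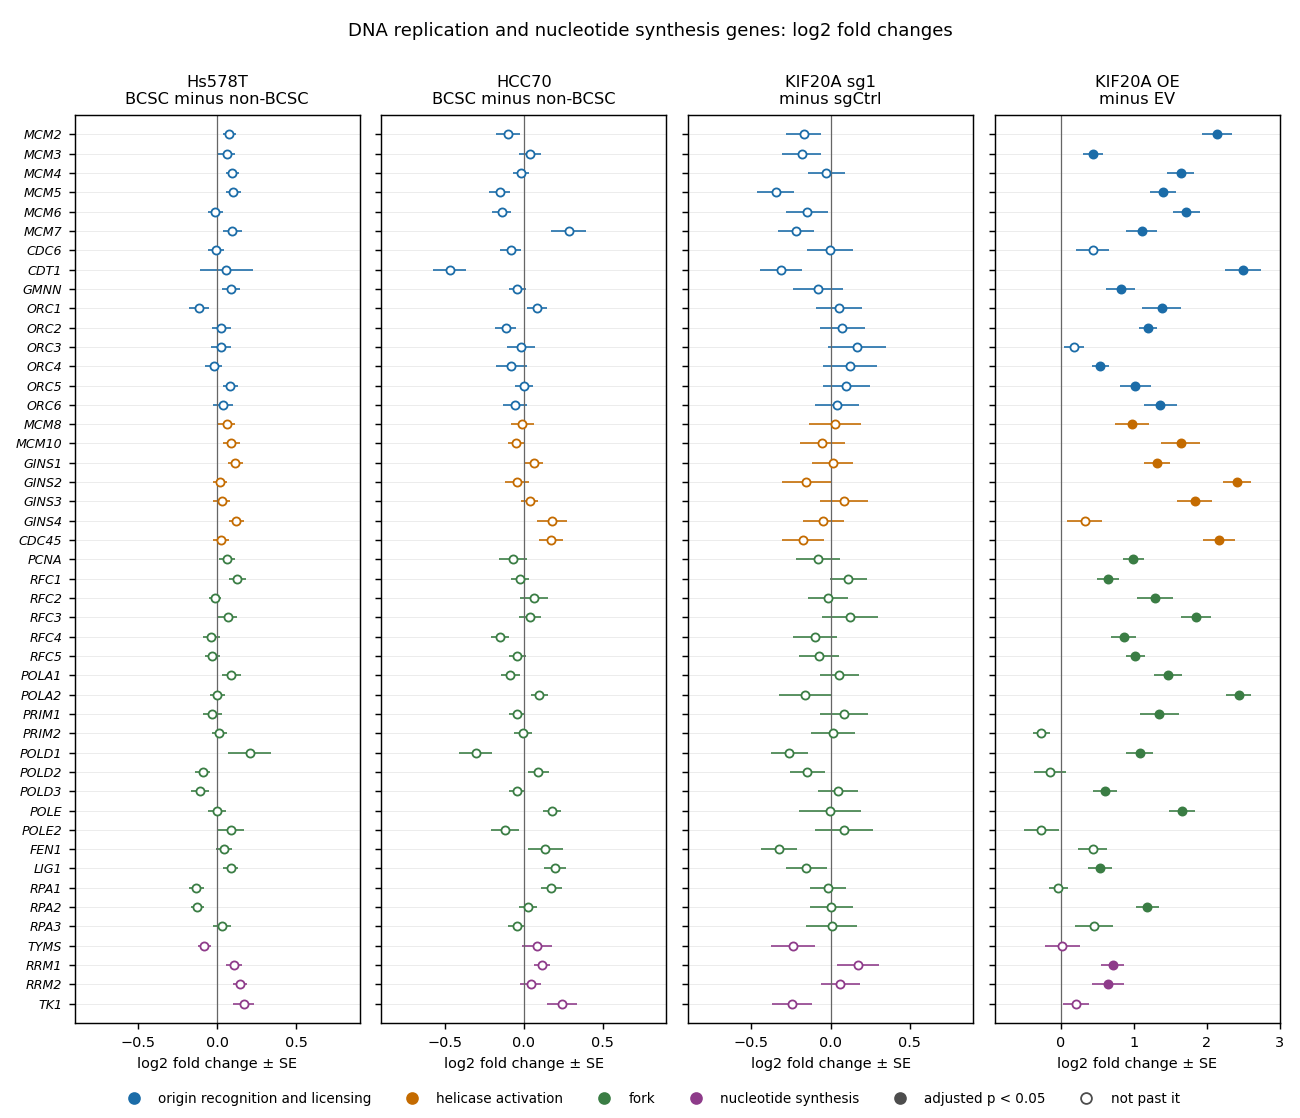
Log2 fold change (x axis) of each of the 46 genes in the 4 comparisons, with the SE as a bar, coloured by role; filled points passed an adjusted p of 0.05 in limma, and the scale of the overexpression panel is wider. No point is filled in the sorted lines or the depletion, and 35 are filled in the overexpression panel, between 0.44 and 2.50.

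Whether the BCSC effect differed between the lines was tested as the interaction of fraction and cell line over the 12 sorted libraries. Of the 46 genes 1 passed, RPA1, where 7.11% of the 11668 genes tested did. Its log2 fold change was -0.13 in Hs578T and 0.17 in HCC70, where RPA1 was at 36.7, 40.4 and 42.6 TPM in non-BCSCs and 46.3, 43.6 and 45.1 TPM in BCSCs. The fractions did not overlap in either line and lay in opposite order, with a difference of 0.30 (SE 0.08, adjusted p = 0.0449 from limma); rescaling by the median of ratios gave an adjusted p of 0.07527 and edgeR 0.05206, and without 1 library the call was lost in 10 of 12 fits, with adjusted p from 0.02717 (without HCC70 non-BCSC replicate 3) to 0.1077 (without HCC70 BCSC replicate 1). The next smallest adjusted p were those of MCM5 (difference -0.26, adjusted p = 0.0843), POLD1 (-0.51, adjusted p = 0.117) and RPA2 (0.15, adjusted p = 0.149).

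In the depletion experiment KIF20A itself was at 153, 173 and 156 in sgCtrl and 122, 145 and 91.1 in KIF20A sg1, in CPM-like units without a length term (log2 fold change -0.45, SE 0.16, adjusted p = 0.69 from limma). The groups did not overlap, but an RNA level need not report cutting by a guide. For protein, the paper reports by immunoblot that KIF20A was depleted in MDA-MB-231 cells with its sgRNAs. Of the 46 genes none was called, as for all 12852 genes tested (0%). DESeq2 called 16 genes, none of them a member, and edgeR 0. At an unadjusted p under 0.05 there were 3 members, where 7.00% of all genes passed. Their log2 fold changes ran from -0.35 to 0.17 with a median of -0.02, beside 0.0023 over all genes tested; 20 were above 0, where 50.4% of all genes were and 49.6% lay below.

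Values entirely below sgCtrl were found for 8 members, where 7.30% of all genes had them, and none lay entirely above, where 5.73% of all genes did. They were MCM2, MCM5 and MCM7 of the helicase, CDT1, POLD1 and POLD2 of polymerase delta, the flap nuclease FEN1, and TK1, named after their values were seen. MCM5 was at 141, 132 and 120.2 in sgCtrl and 101, 108 and 99.5 in KIF20A sg1 (log2 fold change -0.35, SE 0.12), FEN1 at 149, 137 and 140.4 against 108, 112 and 119.97 (-0.33, SE 0.11), and CDT1 at 70.3, 77.0 and 59.3 against 51.8, 56.6 and 56.4 (-0.31, SE 0.13). Each of these had an adjusted p of 0.69 from limma, and that of MCM5 ran from 0.07142 without sgCtrl replicate 3 to 0.9994 without sgCtrl replicate 2. Replicate 3 of sgCtrl held the highest sgCtrl value for 30 of the 46 genes, and without it 144 genes were called, 7 higher and 137 lower, none of them a member.

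Of the other members, MCM2 was at 121, 111 and 109 in sgCtrl and 99.4, 105 and 98.3 in KIF20A sg1, and TK1 at 244.45, 244.5 and 256 against 218, 231 and 181. CDC6 (118, 109.97 and 147 against 107, 133 and 133), GMNN (54.4, 56.1 and 76.5 against 53.5, 67.3 and 55.0) and CDC45 (55.0, 42.4 and 51.2 against 42.3, 43.9 and 44.1) overlapped. PCNA was at 215, 243 and 306 in sgCtrl and 239.6, 239.5 and 236 in KIF20A sg1. RRM1 (273, 262 and 339 against 322, 352 and 306), RRM2 (329.8, 273 and 314 against 303, 327 and 323) and TYMS (66.6, 61.3 and 53.6 against 53.4, 56.4 and 43.9) overlapped as well. The G2/M phase genes had 16 of 20 above 0 and a median of 0.20, with none called, and neither further list held a called gene. These 20 include KIF20A, the targeted gene, which lay below 0.

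In the libraries labelled KIF20A OE, most replication genes were higher than in EV. KIF20A was at 101, 143 and 124 CPM in EV and 1348, 269 and 896 CPM in KIF20A OE (log2 fold change 2.49, SE 0.51). Of the 46 genes 35 rose and none fell, where 46.2% of the 15265 genes tested rose and 23.4% fell, 69.7% in either direction. The same 35 had an unadjusted p under 0.05, where 72.2% of all genes did, and 42 lay above 0, where 63.4% of all genes did and 36.6% lay below. The members' median log2 fold change was 1.02 and that of all genes tested 0.37. With rescaling by the median of ratios, which brought the median of all genes to 0.04 and their calls from 7055 higher and 3579 lower to 5214 and 4941, 27 members rose and 3 fell (PRIM2, POLE2 and RPA1), and the members' median was 0.68. The loss of mesenchymal markers in the same libraries, by a median of -6.88 on the log2 scale, moved with these values, and its part in them was not tested.

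The roles ranked differently. Among helicase activation genes 6 of 7 rose (median 1.64), among licensing genes 13 of 15 (1.19), among fork genes 14 of 20 (0.93) and among nucleotide synthesis genes 2 of 4 (0.43). Under the median of ratios the medians were 1.30, 0.85, 0.58 and 0.08 in that order, and 6, 10, 11 and 0 rose. Groups did not overlap for 34 genes that were higher, where 48.9% of all genes did so, and for PRIM2 alone on the lower side, where 25.2% did, or 74.1% in either direction. The ranking of roles itself was not tested.

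CDT1 rose most, from 40.5, 80.1 and 56.8 CPM in EV to 377, 267 and 344 CPM in KIF20A OE (log2 fold change 2.50, SE 0.24, adjusted p = 3.87e-05 from limma). Its 3 KIF20A OE values all lay more than 3 times above the highest EV value. POLA2, the regulatory subunit of polymerase alpha, rose from 3.62, 3.77 and 3.35 CPM to 26.2, 22.0 and 23.4 CPM (2.44, SE 0.17, adjusted p = 5.76e-06), from 57 reads in the lowest library. Its value is uncertain, since 21.3% of its exon bases overlap other genes, 2012 bases of them a gene on the same strand. GINS2 rose from 14.6, 21.4 and 18.7 CPM to 105, 81.4 and 118 CPM (2.41, SE 0.19, adjusted p = 1.21e-05).

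CDC45 rose from 20.6, 39.7 and 30.7 CPM to 138, 144 and 122 CPM (log2 fold change 2.16, SE 0.22) and MCM2 from 53.8, 95.7 and 59.5 CPM to 279, 301 and 324 CPM (2.14, SE 0.21). PCNA rose by less, from 158, 225 and 178 CPM to 357, 367 and 386 CPM (0.99, SE 0.14), and GMNN from 63.8, 84.3 and 69.1 CPM to 109, 174 and 111 CPM (0.82, SE 0.20). All of these passed the test, with no overlap between the groups, but the call of GMNN was lost under the median of ratios and edgeR. CDC6 did not pass, at 58.6, 115 and 80.8 CPM against 109, 123 and 103 CPM (0.44, adjusted p = 0.111 from limma).

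Nucleotide synthesis genes had the lowest median of the 4 roles. RRM1 rose from 159.7, 241 and 187 CPM to 341, 296 and 316 CPM (log2 fold change 0.71, SE 0.16, adjusted p = 0.00395 from limma), and RRM2 from 167, 295 and 186 CPM to 346, 277 and 370 CPM (0.65, SE 0.22, adjusted p = 0.0272), although its groups overlapped and both calls were lost under the median of ratios (RRM2 adjusted p = 0.2528). TYMS stayed within the spread of EV, at 86.3, 155 and 168 CPM against 128, 121 and 151 CPM (0.02, SE 0.24, adjusted p = 0.94), and TK1 likewise, at 114, 188 and 135 CPM against 161, 175 and 160.4 CPM (0.21, SE 0.18, adjusted p = 0.311). Both of these turned negative under the median of ratios, edgeR and DESeq2.

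The fork genes that did not rise were PRIM2, POLD2, POLE2, FEN1, RPA1 and RPA3, beside CDC6 and ORC3 of licensing and GINS4. PRIM2, the large primase subunit, was at 51.1, 55.2 and 54.2 CPM in EV and 43.1, 48.1 and 42.2 CPM in KIF20A OE (log2 fold change -0.26, SE 0.12), while its partner PRIM1 rose. The value of PRIM1 is uncertain, since 19.1% of its exon bases overlap other genes, 501 bases of them on the same strand. POLE2 was at 21.7, 40.7 and 27.1 CPM against 20.2, 27.7 and 24.3 CPM, while POLE, which it accompanies, rose from 74.2, 123 and 95.4 CPM to 306, 299 and 310.03 CPM (1.66, SE 0.18). RPA1 was at 191, 256 and 228 CPM against 214, 234 and 209 CPM, while RPA2 rose from 72.5, 98.1 and 68.3 CPM to 173, 166 and 202 CPM (1.19, SE 0.16). Subunits of the same complexes were thus listed on both sides of the test; the differences between subunits were not tested.

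EV replicate 2 held the highest EV value for 41 of the 46 genes and EV replicate 1 the lowest for 41. Without EV replicate 2, 40 genes rose, with CDC6, GINS4, FEN1, RPA3 and TK1 added to the 35. Of all genes 6882 rose in that fit, beside 7055 with every library. Leaving out any other library of the experiment left 32 to 34 members that rose, where 6308 to 7049 of all genes did. The call of RRM2 was lost without EV replicate 1 or 3 or KIF20A OE replicate 1 or 3. That of LIG1 was lost without any 1 of the 3 KIF20A OE replicates, and that of MCM3 without KIF20A OE replicate 2 or 3. Of the 19 members with E2F letters in the promoter 15 rose (median log2 fold change 1.32), and of the 21 without them 16 rose (0.86). Of the 6 with no promoter entry 4 rose (0.90), and 46.2% of all genes rose. The difference by E2F letters was not tested.

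**Figure D4:**
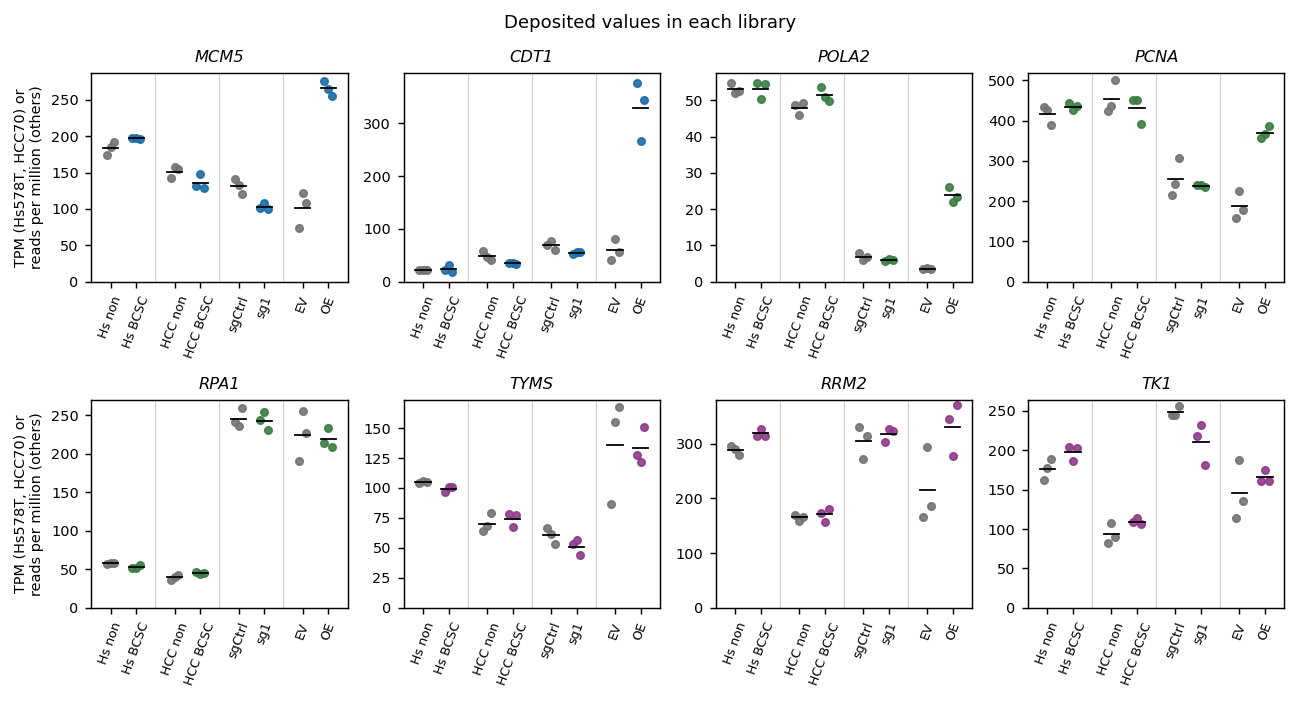
Deposited value of 8 members in each of the 24 libraries (points) with the mean of each group (line); Hs578T and HCC70 are in TPM and the MDA-MB-231 groups in CPM or CPM-like units without a length term, so heights compare only within a panel section. MCM5, CDT1, POLA2 and PCNA lie higher in all KIF20A OE libraries than in EV, and RPA1, TYMS, RRM2 and TK1 overlap between them.

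Of the further lists, 19 of 26 replication genes rose and 1 fell (median 0.90), and 5 of 12 nucleotide genes rose and 2 fell (median 0.40), where 46.2% of all genes rose and 23.4% fell. Under the median of ratios 15 replication genes rose and 2 fell (median 0.55), and 4 nucleotide genes rose and 2 fell (median 0.11). TICRR, which brings CDC45 to origins, rose most, from 16.5, 28.5 and 22.2 CPM to 129.9, 97.7 and 130.4 CPM (log2 fold change 2.38, SE 0.21), and POLD4, the smallest subunit of polymerase delta, fell from 17.2, 17.3 and 13.0 CPM to 3.01, 1.71 and 2.73 CPM (-2.28, SE 0.22). DCTPP1, a dCTP pyrophosphatase, rose from 26.1, 28.5 and 25.4 CPM to 114, 106 and 101 CPM (1.96, SE 0.12), and CMPK1, a pyrimidine kinase, fell from 259, 271 and 262 CPM to 97.8, 77.3 and 109 CPM (-1.48, SE 0.14). For each of these genes EV and KIF20A OE did not overlap. G2/M phase genes rose in 9 of 20, a share near the 46.2% of all genes, with a median of 0.40. These 20 include KIF20A, the overexpressed gene itself. Under the median of ratios 5 rose and 2 fell and their median was 0.05.

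**Figure D5:**
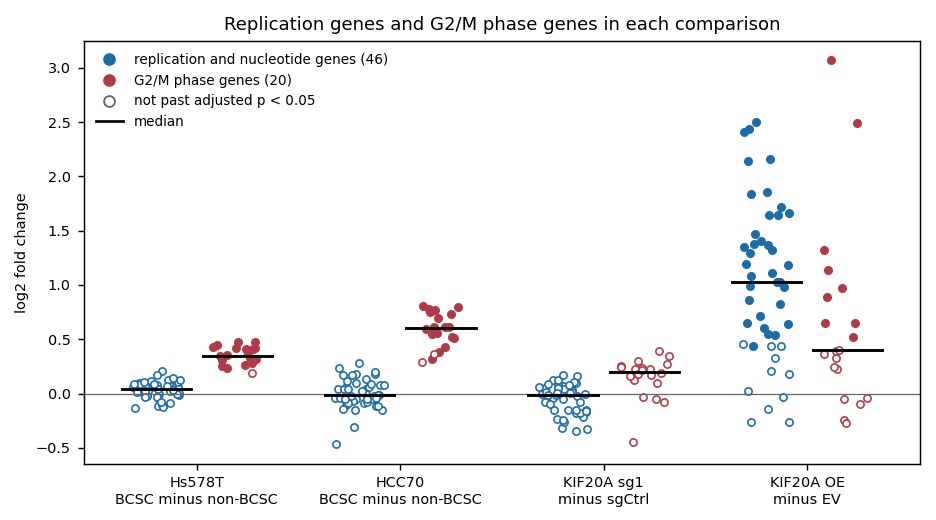
Log2 fold change (y axis) of the 46 replication and nucleotide genes (blue) and the 20 G2/M phase genes (red) in each comparison; filled points passed an adjusted p of 0.05 in limma and black lines are medians. In BCSCs the medians were 0.04 and 0.35 in Hs578T and -0.01 and 0.60 in HCC70, and in KIF20A OE they were 1.02 and 0.40. Both lists were chosen with earlier results of these data known, and the G2/M list holds genes the paper had picked as higher in BCSCs.

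Across the comparisons, limma called no member in BCSCs of either line, where it called 7.15% of all genes in Hs578T and 2.83% in HCC70. The median of ratios, edgeR and DESeq2 called 3, 5 and 6 members in Hs578T. In HCC70 a minimum mean of 5, edgeR and DESeq2 called 1, 1 and 2. After KIF20A depletion limma called no gene at all, so the lack of called members there says nothing of this gene set. Against EV, 35 members rose in KIF20A OE, where 46.2% of all genes rose and 23.4% fell. Under the median of ratios 27 members rose and 3 fell, where 5214 of all genes rose and 4941 fell. The 6 mesenchymal markers were lower in the same libraries, with a median log2 fold change of -6.88. The part of that loss in the members' values was not tested. CDT1 gave log2 fold changes of 0.06 in Hs578T BCSCs, -0.47 in HCC70 BCSCs, -0.31 in KIF20A sg1 and 2.50 in KIF20A OE. MCM5 gave 0.10, -0.15, -0.35 and 1.41 in that order. LIG1 gave 0.09, 0.20, -0.15 and 0.54, and TK1 gave 0.17, 0.24, -0.25 and 0.21. Only the values of KIF20A OE for CDT1, MCM5 and LIG1 passed the test among these, and that of LIG1 did not under the median of ratios, edgeR or DESeq2.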

How the data were processed

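Poly-A RNA was sequenced with paired-end reads on stranded libraries, in 24 libraries of 8 groups with 3 replicates each. The submitters' processing notes name HISAT2 2.0.5, featureCounts 1.5.0-p3 and GRCh38; the annotation and strand setting are not given in the sources used here. The authors deposited TPM for Hs578T and HCC70, CPM for the overexpression, and for the depletion a CPM-like signal, reads divided by a factor per library. Whole reads were recovered for the count tests: 100% of the values of the overexpression and depletion tables were whole within 0.02 reads. In the TPM tables reads came from ratios within a gene, corrected for a common divisor in 739 of 17148 genes compared between the lines. No sample column was left unused.

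From the deposited values, log2(value + 1) was tested by limma 3.58.1 (R 4.3.3) with a trend, two-sided, on genes whose values averaged 1 or more across the 6 samples, with Benjamini-Hochberg adjustment over all genes tested; fold changes on this scale understate those of low genes. Each comparison was fitted alone. Calls are adjusted p under 0.05. Alternatives were a pseudocount of 0.1, no minimum or a minimum of 5, the median of ratios, edgeR 4.0.16 quasi-likelihood and DESeq2 1.42.0 on recovered reads, a replicate block, and each library left out. The fits were tested on simulated reads with 1 fixed spread between replicates, not the spread of these libraries. Of changes of 1 on the log2 scale, limma recovered 91% in Hs578T, 95% in HCC70, 100% in the depletion and 97.7% in the overexpression. False calls made up 7%, 5.88%, 3.88% and 6.38% of calls in that order. The recovery therefore does not describe libraries with a wider spread. No 2 replicates agreed within sampling noise. The labels call the replicates biological triplicates and say no more of their source, so p-values measure the spread between these libraries. Members and lists were chosen with earlier results of these data known. Named with values were the 3 members with the largest rise and fall past the threshold (or the 3 with the smallest p), CDC6, CDT1, GMNN, MCM2, CDC45, PCNA, RRM1, RRM2, TYMS and TK1, and members past the interaction test; others were named after their values were seen. Exon overlaps are from GENCODE 44. Tables were handled with Python 3.11.15, pandas 2.3.3 and numpy 2.4.6, and figures drawn with matplotlib 3.10.9.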

Additional observations from a re-analysis of the deposited data

Results flagged for a closer look

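RPA1, the large subunit of the single-strand binding protein, was singled out because its BCSC effect differed between the lines by the interaction test: HCC70 minus Hs578T was 0.3029 on the log2 scale (SE 0.08, adjusted p = 0.0449 from limma over 11668 genes), with lower values in 3 of 3 Hs578T BCSC libraries and higher values in 3 of 3 HCC70 BCSC libraries than in any non-BCSC library of the same line. RPA1 was the only 1 of the 46 members to pass, where 7.11% of all genes tested did. Line and batch cannot be told apart. The call was lost with the median of ratios, edgeR and the replicate block, and kept by DESeq2 (adjusted p = 0.01807). It was also lost in 10 of the 12 fits that left out 1 library, and kept without HCC70 non-BCSC replicate 3 or Hs578T BCSC replicate 3. Groups of 3 were too small for a test of single outlying libraries.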

How the results depend on the processing

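Members called in the sorted lines moved with the tool. In Hs578T 0 were higher with limma, and 3 with the median of ratios, 5 with edgeR and 6 with DESeq2. All genes gave 386 higher with limma and 596, 810 and 737 with the others in that order. In HCC70 0 were lower, and 1 with a minimum mean of 5, 1 with edgeR and 2 with DESeq2, and 0 to 1 without 1 library. Among all genes 73 were lower with limma, 133, 270 and 537 with these settings in turn, and 10 to 68 without 1 library. In KIF20A OE 0 members were lower with limma and 3 with the median of ratios, edgeR and DESeq2, and 0 to 1 without 1 library. The lower calls over all genes were 3579 with limma, 4941, 4832 and 4955 with these tools in turn, and 3268 to 3406 without 1 library. The interaction gave 1 member, 0 with the median of ratios, 0 with edgeR, 4 with DESeq2 (RPA1, MCM4, MCM5 and POLD1), and 0 to 3 without 1 library. Its calls over all genes were 830 with limma, 731, 977 and 1391 with these tools in turn, and 291 to 1225 without 1 library. The causes were not tested. The depletion gave 0 members under every alternative run.

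Signs turned for small values. CDC6 in Hs578T, -0.0054 in limma, was 0.01519 with the median of ratios, 0.01641 with edgeR and 0.01653 with DESeq2; in KIF20A sg1, -0.0049, it was 0.004409 with edgeR. In KIF20A OE TYMS, 0.02, was -0.3262, -0.3711 and -0.3692, and TK1, 0.21, was -0.1372, -0.1668 and -0.1652, with the median of ratios, edgeR and DESeq2 in turn. Without 1 library, log2 fold changes that turned sign ranged as follows: Hs578T CDC6 -0.03372 to 0.03921, Hs578T CDT1 -0.1498 to 0.2368, Hs578T CDC45 -0.006319 to 0.07155, HCC70 PCNA -0.1165 to 0.004025, HCC70 RRM2 -9.114e-05 to 0.1023, KIF20A sg1 CDC6 -0.09074 to 0.1159, KIF20A sg1 GMNN -0.1807 to 0.07568, KIF20A sg1 PCNA -0.1929 to 0.06084, KIF20A sg1 RRM2 -0.01956 to 0.117 and KIF20A OE TYMS -0.2754 to 0.1995.

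Whether the numbers of the replicates pair the samples cannot be settled from groups of 3, whose deviations from the group mean depend on each other. The correlation of deviations between same-numbered libraries was 0.157, -0.126 and -0.116 in Hs578T and -0.0107, 0.315 and -0.235 in HCC70. It was 0.00362, -0.139 and -0.135 in the depletion and 0.0536, 0.0799 and -0.00357 in the overexpression experiment. Between differently numbered libraries it ran from -0.21 to 0.194 in Hs578T and -0.294 to 0.262 in HCC70. There it ran from -0.242 to 0.348 in the depletion and -0.088 to 0.0259 in the overexpression experiment. With the replicate block, 0 members were called in the interaction against 1 without it, 35 in KIF20A OE as without it, and 0 in the other comparisons; RPA1 had an adjusted p of 0.08916. Over all genes the block gave 669 calls against 953 in Hs578T, 128 against 374 in HCC70 and 302 against 830 in the interaction.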
